A study of Mus musculus with 8 samples.

Results

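Prostaglandins and leukotrienes are lipid mediators made from arachidonic acid, and the genes described here encode the enzymes that make the prostaglandin PGE2 and the leukotrienes together with the main PGE2 receptors of macrophages. The 10 genes were taken by name from the 18635 genes of the deposited table, and all 10 were found: *Pla2g4a*, *Ptgs1*, *Ptgs2*, *Ptges*, *Ptges3*, *Ptger2*, *Ptger4*, *Alox5*, *Alox5ap* and *Ltc4s*. Every one of them passed the filter of a mean normalized count of at least 10, which left 13629 genes for testing. Their levels were compared between 2 kinds of tumor-educated macrophages (TEMs): the controls, *Phgdh* fl/fl TEMs (4 samples), and TEMs that were *Phgdh* fl/fl *Cx3cr1*-Cre (4 samples).

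Both groups carried floxed alleles of *Phgdh*, which encodes the first enzyme of serine synthesis, and were cultures of bone marrow-derived macrophages (BMDMs) from mice of 6 to 8 weeks of age. The marrow cells were differentiated in medium conditioned by L929 fibroblasts, a source of the growth factor M-CSF, and then held for 24 h in medium conditioned by AE17 cells (AE17-TCM), a mouse mesothelioma line. In the second group the Cre recombinase was expressed from the *Cx3cr1* locus of a mouse with 1 Cre allele, and the controls had no Cre and both *Cx3cr1* alleles. Loss of *Phgdh*, the presence of Cre and the changed *Cx3cr1* allele therefore cannot be told apart in any difference reported here. The submitters call the samples biological replicates without saying which mice they came from, so the p-values measure the spread between these samples.

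Cytosolic phospholipase A2, the product of *Pla2g4a*, frees arachidonic acid from membrane phospholipids. On the prostaglandin branch, the cyclooxygenases COX-1 (*Ptgs1*), present in most cells, and COX-2 (*Ptgs2*), induced by inflammatory signals, turn it into PGH2, which PGE synthases (*Ptges*, *Ptges3*) convert to PGE2. PGE2 acts on macrophages mainly through the receptors EP2 (*Ptger2*) and EP4 (*Ptger4*), both of which raise cAMP. On the leukotriene branch, 5-lipoxygenase (*Alox5*) works with its activating protein FLAP (*Alox5ap*) to form LTA4, and LTC4 synthase (*Ltc4s*) joins LTA4 to glutathione.

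The promoters of 4 of these genes are shown because the results turn on them: *Ptgs2* and *Alox5*, the members with the largest rise in each branch, and the receptor pair *Ptger2* and *Ptger4*, which moved in opposite directions. Each sequence comes from RefSeq on GRCm38.p6, the assembly behind mm10, and runs on the gene's strand from 250 bases before the transcript start through the first 50 bases after it. Capitals mark matches, on either strand, to motifs listed after the sequences. RefSeq promoters were matched for 9 of the 10 members, all but *Alox5ap*. The *Ptgs2* window is chr1:150099781-150100080 on the plus strand, that of *Alox5* is chr6:116461129-116461428 on the minus strand, that of *Ptger2* is chr14:44987861-44988160 on the plus strand and that of *Ptger4* is chr15:5244138-5244437 on the minus strand.
Ptgs2: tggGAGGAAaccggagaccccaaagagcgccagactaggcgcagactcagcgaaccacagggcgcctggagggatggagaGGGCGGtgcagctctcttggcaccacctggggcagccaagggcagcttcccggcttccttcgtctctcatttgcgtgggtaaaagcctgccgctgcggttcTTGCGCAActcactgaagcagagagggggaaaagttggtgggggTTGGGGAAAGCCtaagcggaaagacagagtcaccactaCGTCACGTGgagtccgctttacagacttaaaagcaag
Alox5: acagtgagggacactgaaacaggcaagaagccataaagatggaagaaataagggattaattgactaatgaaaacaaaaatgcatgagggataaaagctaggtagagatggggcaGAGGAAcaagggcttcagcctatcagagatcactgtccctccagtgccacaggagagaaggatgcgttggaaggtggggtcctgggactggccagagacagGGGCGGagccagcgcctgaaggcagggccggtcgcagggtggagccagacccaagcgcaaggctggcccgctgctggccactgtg
Ptger2: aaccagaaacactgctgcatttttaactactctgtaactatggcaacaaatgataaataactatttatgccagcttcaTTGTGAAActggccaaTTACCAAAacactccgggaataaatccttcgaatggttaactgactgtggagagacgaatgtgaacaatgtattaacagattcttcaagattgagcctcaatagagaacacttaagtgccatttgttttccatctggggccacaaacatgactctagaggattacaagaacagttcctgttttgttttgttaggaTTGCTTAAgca
Ptger4: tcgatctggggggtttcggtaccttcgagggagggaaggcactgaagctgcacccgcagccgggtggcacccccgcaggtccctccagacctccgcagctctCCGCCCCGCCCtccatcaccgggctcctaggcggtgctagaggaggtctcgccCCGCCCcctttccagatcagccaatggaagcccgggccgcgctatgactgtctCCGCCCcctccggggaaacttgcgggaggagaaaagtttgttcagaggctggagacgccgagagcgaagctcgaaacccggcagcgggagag

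The motifs were exact matches to the cAMP response element core TGACG, the E-box CACGTG, the C/EBP motif TTNNGNAA, the NF-kappaB motif GGNNTTNCC, the Sp1 GC box GGGCGG, the PU.1 motif GAGGAA, the AP-1 motif TGANTCA and the TATA box TATAAA, a choice made after the fold changes were known. A match is a run of letters and says nothing of binding. The *Ptgs2* window held 6 of these 8 motifs, and its GC content was 59.3%. Positions are counted from 1 at the first base of the RefSeq transcript, a start that was not mapped in these data. The cAMP response element core lay at 14 to 18 and overlapped the E-box at 17 to 22. These letters occurred in 20.8% and 7.15% of 32817 promoters. C/EBP matches lay at -69 to -62 and at -25 to -18, the latter overlapping an NF-kappaB match, and these motifs occurred in 40.7% and 16% of all promoters.

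In *Alox5* a GC box lay at -35 to -30 and a PU.1 match at -136 to -131, and these letters were found in 35.6% and 28.3% of all promoters. The receptor promoters differed in composition, with a GC content of 37.7% for *Ptger2* and 67% for *Ptger4* against a median of 52.7% over all promoters. The RefSeq start of *Ptger2* lies upstream of the gene start given below from the annotation. *Ptger2* had 3 C/EBP matches and no GC box, whereas *Ptger4* had 4 GC boxes, the upstream pair sharing a base, and no C/EBP match. Among the 9 matched members a TATA box was found in *Pla2g4a* alone and an AP-1 match in none, against 13.6% and 7.81% of all promoters. The TATA match lay on the opposite strand, at -200 to -195 of another RefSeq promoter within *Pla2g4a*, chr1:149922390-149922689. The promoter at the start of *Pla2g4a* had no TATA match.

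The table gives, for each gene and sample, the number of reads over that sample's size factor (the normalized count), and behind these values lay between 38219563 and 47027420 reads per sample. *Phgdh* fell from 117 ± 9.82 to 27.1 ± 9.39 normalized counts (mean ± SD, n = 4 per group, log2 fold change -2.15, limma adjusted p = 5.1e-08). *Cx3cr1* fell from 1075 ± 94.2 to 660 ± 32.2 (-0.70, adjusted p = 1.9e-09). The fall of *Phgdh* is the direction that the labels give, and that of *Cx3cr1* goes with the Cre allele described above. All 8 macrophage markers were in the table, and 6 of the 8 listed neutrophil markers, among them *Ly6g*, *Mpo* and *Elane*, were not in the table analysed here, whose rarest gene had 10 reads over the 8 samples. Adjusted p-values are from limma with Benjamini-Hochberg adjustment over all 13629 genes, with a threshold of 0.05. A log2 fold change is the difference of the group means of log2(normalized count + 1), Cre over fl/fl. By this test 41.0% of all genes changed, 20.8% upward and 20.3% downward, and 36.7% of all genes had groups that did not overlap. Since these are bulk RNA samples, fewer cells of a type and less RNA per cell cannot be told apart for any gene below.

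Of the 10 members, 5 rose in *Phgdh* fl/fl *Cx3cr1*-Cre TEMs (*Pla2g4a*, *Ptgs2*, *Ptges*, *Ptger2* and *Alox5*), 3 fell (*Ptges3*, *Ptger4* and *Alox5ap*), and *Ptgs1* and *Ltc4s* did not pass the test. The groups did not overlap for 7 members. Changes were small except for *Ptgs2*: the median absolute log2 fold change of the members was 0.18, against 0.12 over all genes tested, and none of the members passed the study's fold change cutoff of an absolute log2 value over 1.5. Members were abundant genes, and among the 10515 genes with a mean of at least 100 normalized counts 48.6% changed, so a count of 8 in 10 is read against that share too.

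**Figure D1:**
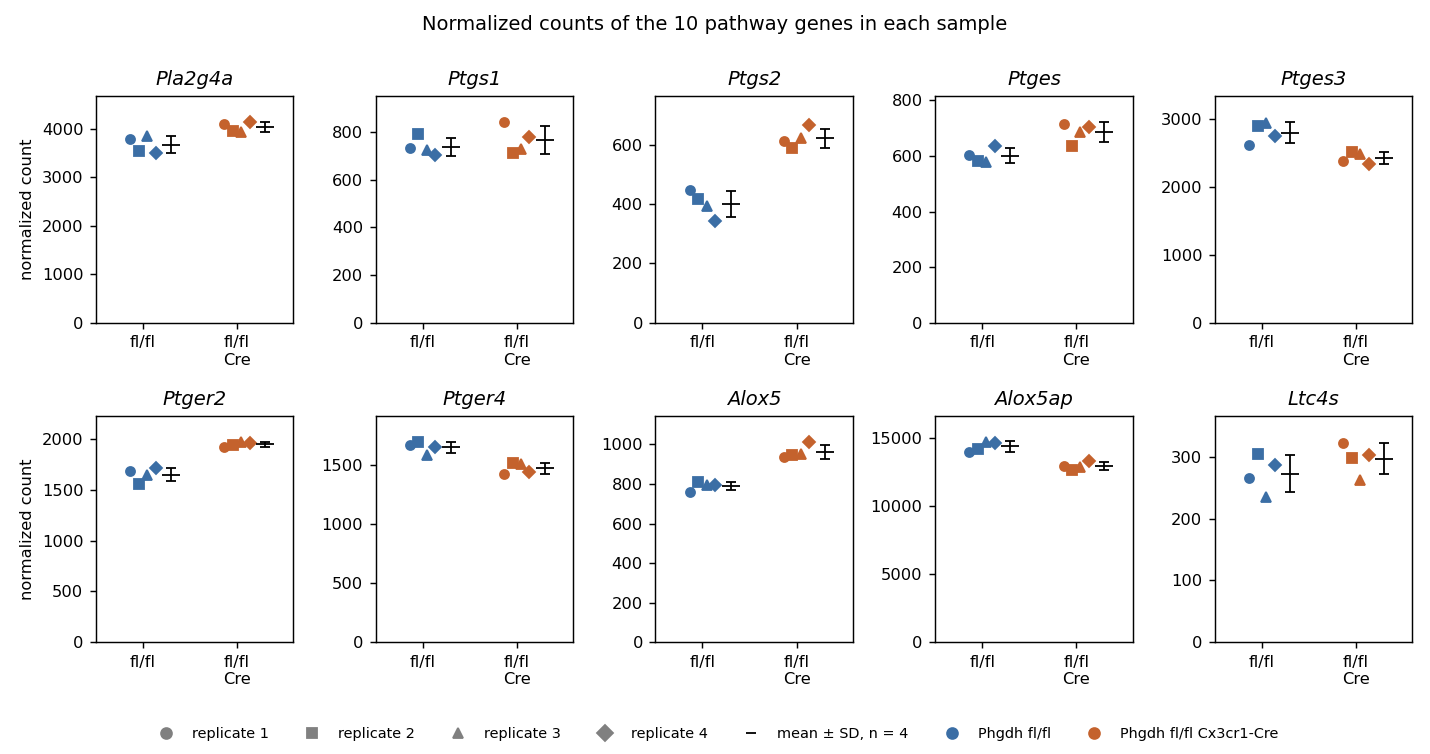
Normalized counts (vertical axes from 0) of the 10 members in each of 4 fl/fl controls (blue) and 4 samples with *Cx3cr1*-Cre (orange), with the marker shape giving the replicate number and the bars the mean ± SD. *Ptgs2* shows the widest gap relative to its level, from at most 445 in fl/fl samples to at least 587 in Cre samples, whereas *Ptgs1* and *Ltc4s* overlap.

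*Pla2g4a*, at the head of the pathway (ENSMUSG00000056220, mm10 chromosome 1, 149829618 to 149961290, minus strand), was higher in the Cre group by a small margin. Its normalized counts were 3787.5, 3549.1, 3842.3 and 3489.9 in the fl/fl samples and 4091.0, 3958.5, 3942.4 and 4140.1 in the Cre samples. Every Cre sample lay above every fl/fl sample, and the gap between the groups was narrower than the spread within either. The mean rose 1.10-fold (log2 fold change 0.14, SE 0.03, adjusted p = 0.0013).

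The cyclooxygenases differed from each other. *Ptgs2* (ENSMUSG00000032487, chromosome 1, 150100031 to 150108227, plus strand) had 445.3, 417.9, 393.8 and 343.5 normalized counts in the fl/fl samples and 611.0, 587.2, 621.1 and 665.2 in the Cre samples. The groups stood well apart, with the lowest Cre sample far above the highest fl/fl sample. The mean rose from 400 ± 43.2 to 621 ± 32.7, or 1.55-fold (log2 fold change 0.64, SE 0.07, 95% interval 0.50 to 0.78, adjusted p = 1.9e-07). This absolute log2 fold change exceeded those of 95.7% of all genes tested. The exact two-sided permutation test over the 70 labelings of 4 against 4 gave p = 0.0286, the smallest this design allows, for *Ptgs2* as for the other 6 members whose groups did not overlap. Between 360 and 684 reads lay behind each value, and the coefficient of variation was 10.8% in fl/fl and 5.26% in Cre samples, against 4.89% and 4.08% from counting error alone.

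*Ptgs1* (ENSMUSG00000047250, chromosome 2, 36230426 to 36252272, plus strand), encoding the constitutive enzyme, ranged from 703.1 to 790.6 normalized counts in the fl/fl samples and from 710.9 to 841.6 in the Cre samples. The ranges overlapped, with Cre replicate 1 alone above all controls. The log2 fold change was 0.05 (95% interval -0.06 to 0.16, adjusted p = 0.476; exact permutation p = 0.514), an interval that leaves room for a rise of the size seen for *Pla2g4a* but not of that seen for *Ptgs2*. Within samples, the ratio of *Ptgs2* to *Ptgs1* rose from 0.542 ± 0.0497 to 0.815 ± 0.0607.

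The PGE synthases also differed in direction. Microsomal PGE synthase, encoded by *Ptges* (ENSMUSG00000050737, chromosome 2, 30889471 to 30929863, minus strand), is the inducible form that is often coupled to COX-2. It had 605.2, 583.5, 579.9 and 636.3 normalized counts in the fl/fl samples and 714.5, 636.0, 686.2 and 706.1 in the Cre samples. The groups touched, since fl/fl replicate 4 lay just above Cre replicate 2. The rise of 1.14-fold (log2 fold change 0.19, SE 0.05) passed the test across all genes (adjusted p = 0.00515), while the exact permutation test on this gene alone gave p = 0.0571.

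Cytosolic PGE synthase, the product of *Ptges3* (ENSMUSG00000071072, chromosome 10, 128058954 to 128077272, plus strand), is also p23, a cochaperone of HSP90. Its values were 2609.6, 2891.0, 2941.9 and 2744.8 normalized counts in the fl/fl samples and 2374.1, 2518.1, 2478.5 and 2332.2 in the Cre samples. All Cre samples were below all fl/fl samples. Expression was 0.867 times that of the controls (log2 fold change -0.20, SE 0.04, adjusted p = 0.00011). The pseudogene *Ptges3-ps*, which can share reads with it, had only 32.5 to 42.6 normalized counts.

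The EP2 and EP4 genes moved in opposite directions. *Ptger2* (ENSMUSG00000037759, chromosome 14, 44988195 to 45003820, plus strand) had 1685.5, 1559.2, 1646.7 and 1719.2 normalized counts in the fl/fl samples and 1920.6, 1942.4, 1972.2 and 1963.6 in the Cre samples. The Cre samples lay close together, above all of the controls. The mean rose 1.18-fold (log2 fold change 0.24, SE 0.03, adjusted p = 7.8e-06).

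*Ptger4* (ENSMUSG00000039942, chromosome 15, 5206661 to 5244187, minus strand) had 1670.6, 1690.8, 1582.6 and 1654.3 normalized counts in the fl/fl samples and 1423.3, 1517.3, 1504.6 and 1442.3 in the Cre samples. Here the order was turned, with all Cre samples below the controls. Expression was 0.892 times that of the controls (log2 fold change -0.16, SE 0.03, adjusted p = 0.00067). The strand setting of the authors' counting is not given in the sources used here, and *Ptger4* shares 1015 exon bases with the antisense pseudogene *Gm15937*, itself at 0 to 4.86 normalized counts. *Ptger4* also shares 82 exon bases with the protein-coding gene *Ttc33* on the opposite strand.

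On the leukotriene branch the enzyme and its partner also moved apart. *Alox5* (ENSMUSG00000025701, chromosome 6, 116410077 to 116461178, minus strand) had 761.4, 810.0, 795.9 and 794.7 normalized counts in the fl/fl samples and 937.3, 945.7, 953.6 and 1010.5 in the Cre samples. The groups were separated by a gap wider than the spread within either. The mean rose 1.22-fold (log2 fold change 0.28, SE 0.04, adjusted p = 1.4e-05), second among the members after *Ptgs2*.

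*Alox5ap* (ENSMUSG00000060063, chromosome 5, 149264767 to 149288153, plus strand) had 13968, 14189, 14745 and 14674 normalized counts in the fl/fl samples and 12953, 12688, 12867 and 13347 in the Cre samples. Each Cre sample was lower than each control. Expression was 0.901 times that of the controls (log2 fold change -0.15, SE 0.02, adjusted p = 2.8e-05). It shares 189 exon bases with the antisense gene *Gm19719*, at 7.78 to 52.5 normalized counts.

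*Ltc4s* (ENSMUSG00000020377, chromosome 11, 50236461 to 50238616, minus strand), the member with the fewest reads, ranged from 234.6 to 304.7 normalized counts in the fl/fl samples and from 262.3 to 322.9 in the Cre samples. The groups overlapped. The log2 fold change was 0.12 (95% interval -0.05 to 0.30, adjusted p = 0.255; exact permutation p = 0.314), so that a rise like that of *Alox5* and no change both lie within its interval. Part of its exons, 268 bases, is shared with the antisense gene *Gm26542*, which had 5.72 to 14.7 normalized counts.

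Neutrophils and mast cells are other sources of *Alox5*, *Alox5ap* and *Ltc4s* transcripts, and their markers were measured beside these genes. Of 8 neutrophil markers 2 were in the table, *S100a8* and *Mmp8*, and both rose, with log2 fold changes of 0.23 (adjusted p = 0.0044) and 0.28 (adjusted p = 1.9e-06). Their summed level was 2155 to 2299 normalized counts in the fl/fl samples and 2609 to 2822 in the Cre samples, and their part in the *Alox5* result was not tested. Of 7 mast cell and basophil markers *Kit* alone was in the table, at 2.07 to 7.12 normalized counts, and *Cpa3*, *Tpsb2*, *Fcer1a*, *Ms4a2*, *Mcpt8* and *Hdc* were not in the table analysed here. Among the 8 macrophage markers *Adgre1*, *Itgam*, *Fcgr1* and *Spi1* fell, by 0.084, 0.19, 0.40 and 0.21 on the log2 scale, and the other 4 did not pass. Their sum ranged from 1002700 to 1092900 normalized counts in the fl/fl samples and from 988260 to 1063700 in the Cre samples. Most of this sum came from *Lyz2*, which did not pass, with means of 719690 in fl/fl and 705960 in Cre samples. The sum therefore says little of the other markers.

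Ratios of members within a sample do not depend on the scaling between samples, and 5 were compared by exact two-sided permutation tests. The ratio of *Ptgs2* to *Ptgs1* was 0.6079, 0.5285, 0.5451 and 0.4885 in the fl/fl samples and 0.7259, 0.826, 0.851 and 0.8561 in the Cre samples. The ratio of *Ptger4* to *Ptger2* fell from 0.9997 ± 0.0581 to 0.755 ± 0.0213, a log2 difference of -0.40 (SE 0.05). The ratio of *Ptges* to *Ptges3* rose from 0.216 ± 0.0188 to 0.283 ± 0.0236, a log2 difference of 0.39 (SE 0.09). None of these ratios overlapped between the groups.

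The ratio of *Alox5* to *Alox5ap* rose from 0.0549 ± 0.00145 to 0.0742 ± 0.00139, a log2 difference of 0.43 (SE 0.02), the most precise of the 5. The lead genes of the branches can also be set against each other: *Alox5* over *Ptgs2* fell from 1.996 ± 0.250 to 1.55 ± 0.0413, a log2 difference of -0.36 (SE 0.09). For each of the 5 ratios the groups did not overlap and the exact permutation p was 0.0286, also after Benjamini-Hochberg adjustment over the 5, and this is the smallest p the design allows. With any sample left out the smallest possible p becomes 0.0571. For *Ptger4* over *Ptger2* and *Alox5* over *Alox5ap* this outcome was fixed by the single genes, whose groups already lay apart in opposite directions. The ratios were chosen with earlier results known, so their p-values are no support beyond the single genes.

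**Figure D2:**
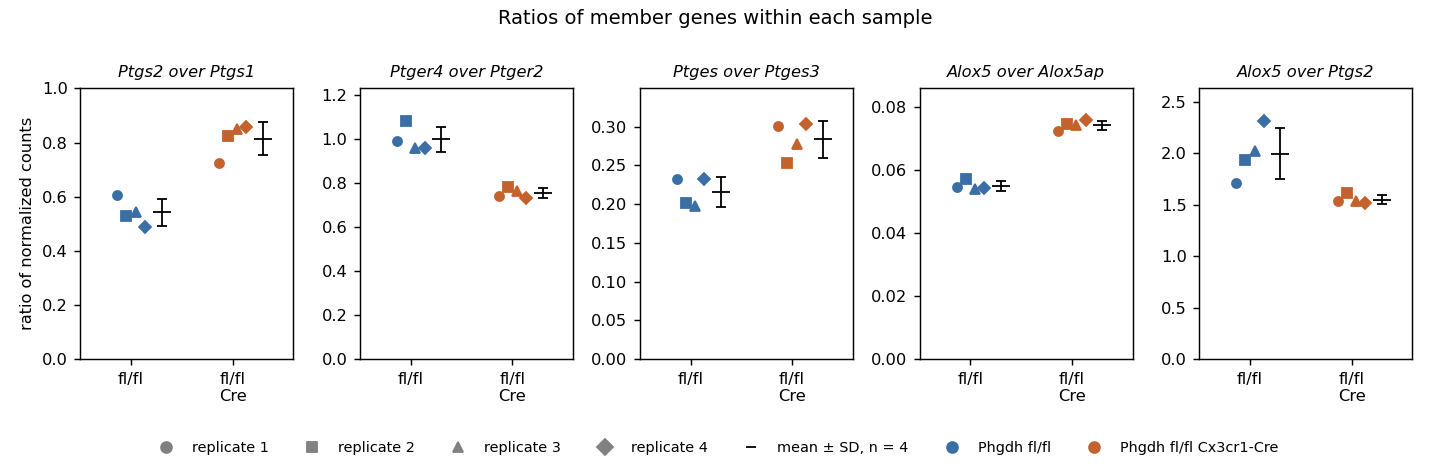
Ratios of normalized counts of 2 members within each sample (vertical axes from 0, no unit), for 4 fl/fl controls (blue) and 4 samples with *Cx3cr1*-Cre (orange), with bars giving the mean ± SD. In all 5 panels the groups are separate, with *Ptgs2* over *Ptgs1* higher and *Ptger4* over *Ptger2* lower in the Cre samples.

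Levels per exon length, in FPKM (fragments per kilobase of exon, scaled to the total of recovered reads), differed widely between the members. *Alox5ap* stood far above the rest, at 233.9 ± 5.73 FPKM in fl/fl and 212.9 ± 4.26 in Cre samples. *Ptges3* followed at 29.1 ± 1.54 and 25.5 ± 0.972, and *Pla2g4a* at 13.2 ± 0.625 and 14.7 ± 0.326. *Ptgs2* was the lowest in both groups, at 2.02 ± 0.220 and 3.16 ± 0.163 FPKM, even after its rise. In between lay *Ptger2*, *Ltc4s*, *Ptger4*, *Alox5*, *Ptgs1* and *Ptges*, whose fl/fl means ran from 7.34 down to 3.53 FPKM. Over all 8 samples the ranges of neighbours in this middle run overlapped, so that the order of neighbours is not resolved over both genotypes together. *Alox5ap*, *Ptges3*, *Pla2g4a* and *Ptgs2* did not overlap with any neighbour. The means of *Ptger4* and *Alox5* were 5.73 ± 0.172 and 4.44 ± 0.113 FPKM in fl/fl samples. In Cre samples they were 5.16 ± 0.174 and 5.46 ± 0.186, the other order.

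**Figure D3:**
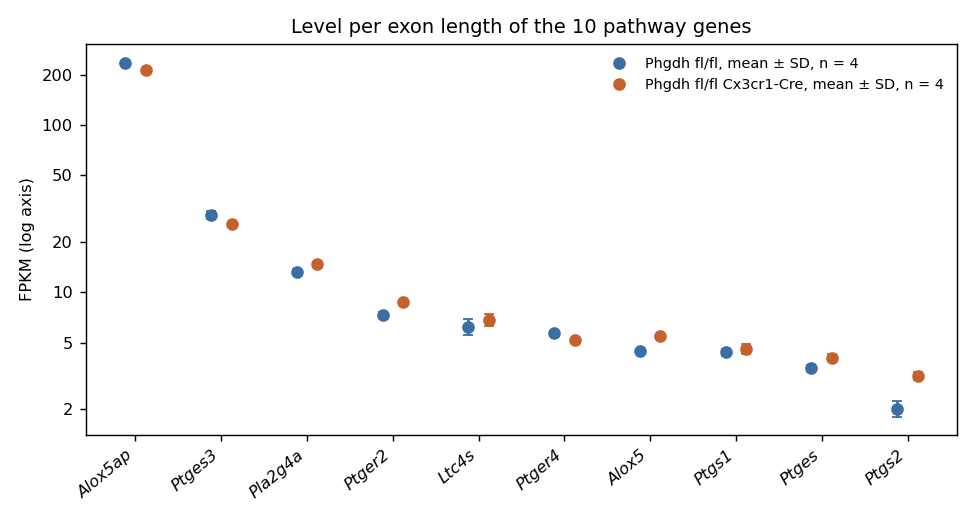
Mean level per exon length (FPKM, log axis) of the 10 members in fl/fl controls (blue) and samples with *Cx3cr1*-Cre (orange), with error bars giving the SD of 4 samples. *Alox5ap* is the highest at 233.9 and 212.9 FPKM and *Ptgs2* the lowest at 2.02 and 3.16 FPKM.

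Other genes of the eicosanoid pathways were followed as a list of 53, of which 39 were in the table and 33 were tested. Of these 6 rose, 7 fell and 20 did not pass, with a median log2 fold change of 0.03 against -0.0018 over all genes tested, and a count of 13 in 33 lies near the 41.0% of all genes. Arachidonate is put back into phospholipids by acyltransferases, and of 10 tested genes of arachidonate release and re-esterification 2 rose and 2 fell. *Lpcat3* fell from 1513 ± 52.4 to 1271 ± 59.2 normalized counts (log2 fold change -0.25, adjusted p = 2.3e-05), and *Lpcat2*, which also makes platelet-activating factor, rose from 2622 ± 85.2 to 2963 ± 58.7 (0.18, adjusted p = 5.8e-05). *Mboat7*, an acyltransferase that places arachidonate into phosphatidylinositol, rose by 0.13 on the log2 scale (adjusted p = 0.00085). The phospholipase gene *Pla2g15* had the highest level per length of this group, 56.7 FPKM in fl/fl samples, and a log2 fold change of 0.04 that did not pass (adjusted p = 0.23).

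Of the 5 other prostanoid synthases tested, *Tbxas1* fell and *Hpgds* rose. Thromboxane synthase (*Tbxas1*), which competes for PGH2, went from 7118 ± 127 to 6457 ± 76.2 normalized counts (log2 fold change -0.14, adjusted p = 4.5e-05). Platelets are another source of *Tbxas1*, and of 4 platelet markers 3 were in the table. Their sum was 222 to 287 normalized counts in fl/fl and 165 to 194 in Cre samples. Most of this sum came from *Ppbp*, with means of 241 in fl/fl and 154 in Cre samples (log2 fold change -0.64, adjusted p = 9.0e-06). *Itga2b*, with means of 17.9 and 19.1, did not pass (0.09, adjusted p = 0.816), and *Gp9* lay below the filter. The part of platelets in the *Tbxas1* result was not tested. The hematopoietic PGD synthase gene *Hpgds* rose from 10854 ± 191 to 11426 ± 215 normalized counts, a log2 fold change of 0.07 (adjusted p = 0.0118).

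A large change was also seen in the RNA of a gene of the breakdown step. *Hpgd*, encoding the dehydrogenase that inactivates PGE2, had 392.3, 318.5, 530.3 and 395.9 normalized counts in the fl/fl samples and 207.0, 254.6, 262.3 and 268.4 in the Cre samples. The groups did not overlap, although the controls were widely spread and fl/fl replicate 3 stood highest. The mean fell to 0.606 times that of the controls (log2 fold change -0.70, SE 0.11, adjusted p = 2.9e-05), opposite in direction to *Ptgs2*. Without fl/fl replicate 3 the log2 fold change was -0.57. In the same group of 6 tested genes of transport and breakdown, the prostaglandin reductase genes *Ptgr3*, named *Zadh2* in the table, and *Ptgr1* rose by 0.18 (adjusted p = 0.00103) and 0.11 (adjusted p = 0.00874) on the log2 scale. The exporter gene *Abcc1*, at 39.5 FPKM in fl/fl samples, had a log2 fold change of 0.03 (adjusted p = 0.39), and it passed without fl/fl replicate 1 (0.05, adjusted p = 0.0383) and under quantile normalization (0.10, adjusted p = 0.00461).

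Among the other prostanoid receptors, *Ptgir*, whose product is the prostacyclin receptor and raises cAMP like EP2, rose from 2760 ± 104 to 3324 ± 28.3 normalized counts (log2 fold change 0.27, SE 0.03, adjusted p = 2.6e-07). It was the only one of 3 tested to pass, and *Ptger1* and *Ptger3*, for the EP1 and EP3 receptors, stayed below 70 normalized counts in the mean of either group. Of 6 other leukotriene and lipoxygenase genes, *Cyp4f18*, for an enzyme that oxidizes LTB4, fell from 200 ± 20.6 to 148 ± 6.20 normalized counts (log2 fold change -0.42, SE 0.09, adjusted p = 0.00088). *Dpep2*, for a dipeptidase that converts LTD4 to LTE4, fell by 0.20 on the log2 scale (adjusted p = 0.00683), read from the more abundant of 2 table rows with this symbol. *Mgst3*, the gene of this group with the highest level per length, had a log2 fold change of -0.05 (adjusted p = 0.38). The cysteinyl leukotriene receptor gene *Cysltr1* fell by 0.12 (adjusted p = 0.0212), and this call was lost without fl/fl replicate 3 (-0.08, adjusted p = 0.105) or without Cre replicate 1 (-0.09, adjusted p = 0.0957).

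**Figure D4:**
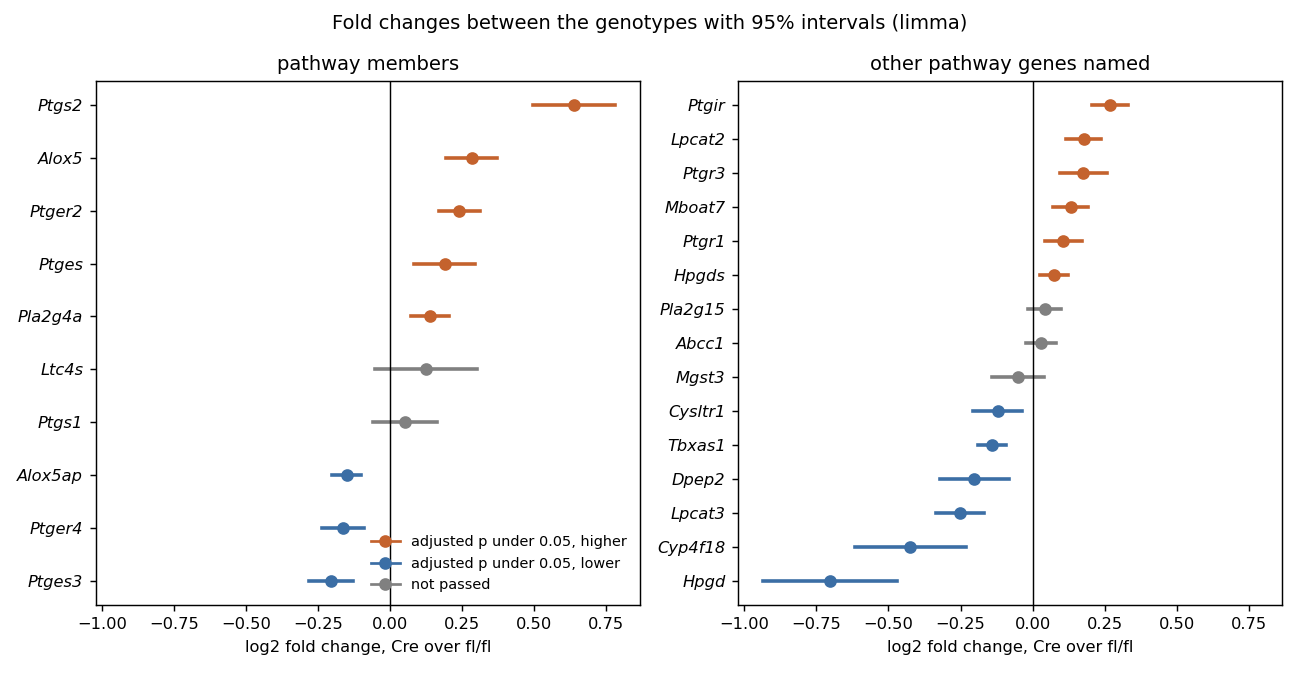
Log2 fold changes (horizontal axis, Cre over fl/fl, limma on log2 normalized counts) with 95% intervals for the 10 members (left) and the other pathway genes named here (right), colored by whether the adjusted p passed 0.05. *Ptgs2* at 0.64 and *Hpgd* at -0.70 lie farthest from 0 in their panels.

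Because EP2, EP4 and the prostacyclin receptor signal through cAMP, 10 genes known to respond to cAMP were also counted. Of the 9 tested, 3 rose, 1 fell and 5 did not pass, a count near the 41.0% of all genes that changed, and these genes respond to other signals too. The orphan nuclear receptors went both ways: *Nr4a3*, a rare transcript, rose from 20.4 ± 6.65 to 43.8 ± 8.20 normalized counts (log2 fold change 1.10, SE 0.24, adjusted p = 0.00088), and *Nr4a1* fell from 592 ± 37.7 to 477 ± 16.6 (-0.31, adjusted p = 0.00011). *Pde4b*, for a phosphodiesterase that degrades cAMP, rose from 747.5 ± 31.8 to 962 ± 30.5 (0.36, adjusted p = 1.0e-06). *Dusp1*, for a phosphatase of MAP kinases, had a log2 fold change of 0.24 (adjusted p = 1.2e-05).

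The members lie on 8 chromosomes, none of them on chromosome 3 with *Phgdh* or chromosome 9 with *Cx3cr1*. *Pla2g4a* and *Ptgs2* are neighbours on chromosome 1, with 138740 bases between them, and rose by different amounts. *Ptgs1* shares 148 exon bases with the antisense gene *Gm43621*, and *Ptger2* shares 144 with *Gm49364* and 246 with *Gm17173*. Across the 8 samples the log2 levels of *Ptgs2* and *Alox5* had the highest correlation of all member pairs (Pearson r = 0.92). *Ptger2* and *Alox5* followed at r = 0.90, and the order of these pairs is not resolved. The log2 levels of *Ptges* and *Ptges3* (r = -0.9197) and of *Ptgs2* and *Alox5ap* (r = -0.9183) were the most opposed, in an order that is likewise not resolved. The difference between the groups and the variation within them both contribute to these values. Over all genes tested, *P2ry12*, *Appl2*, *Kmo*, *Zc3hav1* and *Lcorl* followed *Ptgs2* most closely, with r from 0.9891 to 0.9973 over 8 samples. *Cep162*, *Fas*, *Optn* and *Actr1b* were among the genes most like *Alox5*, with r from 0.9868 to 0.9921. These correlations describe a shared pattern over samples of 2 groups and are given without a test.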

How the data were processed

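RNA was extracted with TRIzol, made into libraries with the NEBNext Ultra Directional kit and sequenced as single-end reads. The authors mapped the reads to mm10 with TopHat2, counted them per gene with HTSeq 0.6 and compared the genotypes with DESeq2. The deposited sample values and their mean per gene are a signal: each read count was divided by the size factor of its sample. They are not divided by gene length, although the paper speaks of FPKM. The deposited log2 fold change with its standard error, the Wald score, and the p-value with its adjusted form are the authors' own comparison and were not used.

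Dividing each sample by the worth of 1 read returned whole reads for 144353 of 144353 values above 0 (tolerance 0.01). Samples were grouped by genotype as labelled. Limma 3.58.1 (R 4.3.3; lmFit, eBayes with trend, two-sided, no covariate) was run on log2(normalized count + 1) for genes with a mean of at least 10. A fold change on this scale understates the change of low genes. Single genes and ratios were tested by exact permutation (Python 3.11.15, scipy 1.17.1). Gene positions and exon lengths came from the GENCODE annotation of the same build. The fits were tested on simulated counts, in which the changes were larger than those of all members except *Ptgs2*. That test therefore does not cover changes as small as those of the other members.

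The members, gene lists, ratios and naming rules were chosen with earlier results of these data known. All members were named. Of the other pathway genes, up to 3 per role with the largest passing change and the 1 with the highest level per length were named; of the cAMP list, up to 2 in each direction, with *Dusp1* added after its values were seen. For *Ptgs2* and *Alox5* the 5 genes with the highest Pearson r were taken, of which 1 is not reported here. Alternatives were a pseudocount of 0.1, no filter, a mean of at least 100, scaling to total reads, quantile normalization, edgeR 4.0.16 (quasi-likelihood, TMM) and DESeq2 1.42.0 on the recovered reads, eBayes without trend, a replicate block and leaving out each sample. Replicate numbers were those of the labels, in which nothing ties same-numbered samples to a common origin. Precision is set by counting for genes with few reads and by the spread between replicates for abundant ones. Reads of genes that overlap, or that have a close copy, may be shared.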

Additional observations from a re-analysis of the deposited data

Results flagged for a closer look

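Among 70 groups of 4 samples, 1 held a sample set apart from the other 3. In the ratio of *Alox5* to *Alox5ap* in *Phgdh* fl/fl TEMs, fl/fl replicate 2 was the highest, at 0.0571, and its gap to the nearest sample took 0.830 of the range of the group, just past Dixon's critical value for groups of this size. Chance sets apart about 1 in 20 groups. The 4 Cre samples all lay above this sample.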

How the results depend on the processing

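Under all 17 alternatives the same counts of 5 higher and 3 lower members were found, 0 members passed an absolute log2 fold change of 1.5, and each member kept its direction and its side of the threshold. Over the alternatives the log2 fold change of *Ptgs2* ranged from 0.57 to 0.69 and that of *Alox5* from 0.26 to 0.30. Genes called over the whole table ranged from 4930 to 5944. The median log2 fold change of all genes was -0.0018, and it was 0.013 with scaling to total reads and -0.012 with quantile normalization. Same-numbered samples of the genotypes correlated between 0.0628 and 0.1263 in their deviations. Not every pair passed 0.1, and fl/fl replicate 1 correlated best with Cre replicate 4 (0.1345). Across the genotypes, all correlations among replicates 1 and 4 and among replicates 2 and 3 were positive, from 0.0484 to 0.1345. All those between these sets were negative, from -0.1237 to -0.0356. The numbers were therefore not taken to pair the samples one by one. What the samples of a set, or those of the same number, share is not known. With the replicate number as a block 5597 genes were called, 2824 higher and 2773 lower, against 5594 without it, and no member changed its call.

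Over the alternatives the other pathway genes counted 5 to 7 higher and 5 to 8 lower, and the cAMP-responsive genes 2 to 4 higher and 1 lower, so that genes not named here moved too. Among the named other genes, the calls that moved were those of *Abcc1* and *Cysltr1* given above, *Cysltr1* again without trend (adjusted p = 0.121) and *Ptgr1* without trend (adjusted p = 0.0545), and the cause was not tested. For *Hpgds* the adjusted p reached 0.0498. For the 5 ratios the smallest p possible was 0.0571 with a sample left out and 0.125 by sign flips within the replicate numbers, so neither could pass; leaving out a sample, the log2 difference of *Ptgs2* over *Ptgs1* ranged from 0.54 to 0.64, of *Ptger4* over *Ptger2* from -0.42 to -0.36, of *Ptges* over *Ptges3* from 0.35 to 0.45, of *Alox5* over *Alox5ap* from 0.42 to 0.45 and of *Alox5* over *Ptgs2* from -0.43 to -0.28. *Phgdh* and *Nr4a3* were below the filter of a mean of at least 100, and no value was obtained for them there. Depth limits the rarest genes most: *Nr4a3* rested on few reads, and of the members *Ltc4s* had the widest interval.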

Other observations

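The transcripts of a gene for making prostaglandin and of a gene for breaking it down can be set beside each other within a sample. Prostaglandin itself was not measured in these RNA samples. The ratio of *Ptgs2* to *Hpgd* was 1.135, 1.312, 0.7427 and 0.8675 in the fl/fl samples and 2.951, 2.306, 2.368 and 2.478 in the Cre samples, so that the Cre samples all lay above the controls (1.01 ± 0.257 against 2.53 ± 0.292, mean ± SD, n = 4 per group). The ratio of *Ptges* to *Tbxas1*, the synthase genes that draw on the same PGH2, went from 0.0845 ± 0.00273 to 0.106 ± 0.00567. Both ratios were chosen after the values of their genes were seen and are given without a test.

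The PGE synthase genes also varied within each genotype. *Ptges* was highest in replicates 1 and 4 of both groups, at 605.2 and 636.3 normalized counts in fl/fl and 714.5 and 706.1 in Cre samples. *Ptges3* was lowest in the same replicates, at 2609.6 and 2744.8 in fl/fl and 2374.1 and 2332.2 in Cre samples. This split was not particular to these genes. Over all genes tested, the deviations of replicates 1 and 4 correlated weakly and positively across the genotypes, and so did those of replicates 2 and 3. The labels do not say what samples of the same number share.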
